A study of Drosophila melanogaster with 37 samples.

Results

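The odorant binding protein (Obp) genes of Drosophila melanogaster were taken from the transcription unit annotation of the study as all gene symbols made of Obp, a number and a lower-case letter. This gave 51 genes of 17698 in the annotation, and they lay in 50 of its 15991 transcription units. A transcription unit (TU) is a stranded interval of the genome that holds 1 gene or several genes. The rule used names only, and no length, coordinate, strand or neighbour entered it, although the number in a symbol refers to a map position. Each of the 51 symbols carried a FlyBase identifier and matched 1 protein-coding gene of the RefSeq table for the same assembly.

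The series profiled nascent RNA held by RNA polymerase II (Pol II), by mNET-seq, in stage 15 embryos that had been sorted by sex. Mothers carried a control RNAi or UAS-mof RNAi, which depletes the maternal supply of mof, the acetyltransferase gene of the male dosage compensation machinery. There were 37 samples in 12 groups of 2 to 4, from preparations of 6000 embryos each. Total Pol II was profiled in 4 female control, 4 female knockdown, 3 male control and 3 male knockdown samples, Pol II phosphorylated on serine 5 of its C-terminal domain in 3 female control samples and in 4 of each other kind, and the serine 2 form in 2 of each kind. Coverage per sample was not analysed here, so the sequencing depth is unknown and nothing below is a transcription level. The driver of the UAS construct and the strain are not given in the labels.

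Odorant binding proteins are small, secreted proteins with a hydrophobic pocket, folded around disulphide-bonded cysteines. In the antenna and in taste organs, support cells release them into the fluid that bathes the dendrites of sensory neurons, where they bind odorants, pheromones or tastants. Some members act outside the senses, in seminal fluid, in glia or in the fat body. The family grew by tandem duplication, and the number in a symbol refers to a numbered division of the polytene chromosome map. The values below describe the intervals over which polymerase signal of these genes can be summed, and what else lies in or beside those intervals.

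More of the family lay on the right arm of chromosome 2 than on all other arms together. Of the 51 genes, 29 (56.9%) were on 2R, an arm with 20.5% of all annotated genes. Arm 3R had 12 Obp genes (23.5%, beside 23.7% of all genes) and the X had 6 (11.8%, beside 15.1%). Arms 2L and 3L had 2 each (3.92%), beside 19.8% and 19.5% of all genes, and chromosome 4 and the Y had 0. The strands were near balance, with 23 Obp TUs on plus and 27 on minus. On 2R there were 14 on each strand, while 9 of the 12 on 3R were on minus. These are counts of a census and carry no test.

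Most Obp TUs were short. The median was 797.5 bp (interquartile range 641.5 to 1120.5, n = 50 TUs), beside 1817 bp (896 to 4233.5, n = 15991) for all TUs and 2241 bp for the 13036 TUs with a protein-coding gene. Of the 50, 34 (68%) were shorter than 1000 bp, beside 28.4% of all TUs. Only 2 were under 500 bp, where 9.72% of all TUs fell, and 32 were of 500 bp or more but under 1000 bp, where 18.7% fell. A length of 2000 bp or more was found for 5 Obp TUs and for 46.4% of all TUs. In the RefSeq table, Obp genes had a median of 788 bp (465 to 10582 bp, n = 51) beside 2160 bp for 13962 protein-coding genes.

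The shortest Obp TU was that of Obp51a (FBgn0043530), a gene known for its product in seminal fluid, at 465 bp. Obp57e, a taste gene tied to host plant choice in Drosophila species, followed at 476 bp, then Obp99d at 500 bp. At the other end, the longest TU with an Obp gene and no other gene was that of Obp56i at 3998 bp. Those of Obp99c at 3576 bp and Obp83a at 3091 bp followed. Obp83a and Obp83b, both abundant in olfactory sensilla of the antenna, are neighbours, yet the TU of Obp83b measured 641 bp. The TUs of Obp83cd and Obp83ef, whose products each join a pair of binding domains, measured 1600 and 1393 bp, while that of their neighbour Obp83g, with a single domain, measured 632 bp.

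On every arm but 3L the Obp median lay below the median of all TUs of that arm. On the X it was 934 bp (778 to 1367 bp, 6 TUs) beside 2242 bp, on 2L 677.5 bp (2 TUs) beside 1624 bp, on 2R 796.5 bp (28 TUs) beside 1781 bp and on 3R 1000.5 bp (12 TUs) beside 1888.5 bp. All 6 X-linked TUs were shorter than the X median. On 3L the 2 TUs were those of Obp69a, at 787 bp, and Obp73a, at 24364 bp.

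**Figure D1:**
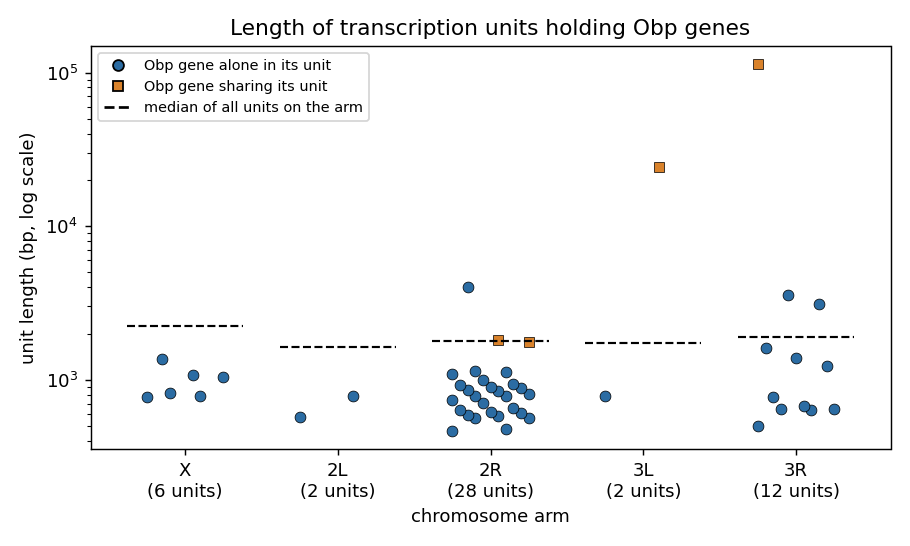
Length of each TU that holds an Obp gene (y axis, bp, log scale) by chromosome arm (x axis). Circles are TUs of a single gene, squares are TUs shared with another gene, and dashes mark the median of all TUs on the arm. The X-linked TUs span 778 to 1367 bp, below the X median of 2242 bp, and the highest squares are the shared TUs of Obp73a (24364 bp) and Obp85a (113290 bp).

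The longest intervals were shared ones. In 4 Obp TUs (8%, beside 7.15% of all TUs) several genes were merged, and these held 5 of the 51 Obp genes. A sum of signal over such a TU is not a value of the Obp gene alone. Obp85a (FBgn0037589) was merged into a TU of 113290 bp on 3R (8364328 to 8477617, minus strand) with CG45263, CR46126 and CR46125. The RefSeq body of Obp85a, 776 bp from 8419822 to 8420597, filled 0.685% of that TU and began 57020 bp from its start. Whether it lies in an exon or an intron of CG45263 was not analysed here.

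Obp73a (FBgn0036681), a member conserved across many insects, shared a TU of 24364 bp on 3L (16944361 to 16968724, plus strand) with Nc73EF, which encodes a subunit of mitochondrial 2-oxoglutarate dehydrogenase. Obp73a formed the first 43.4% of this TU, and its RefSeq body of 10582 bp overlapped that of Nc73EF by 121 bp. The other shared TUs were compact. Obp50b and Obp50c had the same start and end in RefSeq and shared a TU of 1821 bp on 2R (14371186 to 14373006, plus strand), with 1 transcript of each. Obp57d, the partner of Obp57e in host plant taste, shared a TU of 1750 bp on 2R (20548368 to 20550117, minus strand) with the cuticle protein gene Cpr57A, and RefSeq also gave both genes this same interval.

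A single transcript was listed for 28 Obp TUs (56%, beside 54.6% of all TUs). All 28 were among the 46 TUs with 1 gene, where 17 others had 2 transcripts and 1, that of Obp83a, had 3. The shared Obp TUs each listed more than 1 transcript and so could not be among the 28. The transcript count equalled that of RefSeq in all 46, and start and end were the same as well. The starts used here are therefore annotated starts and were not measured in these embryos.

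Obp genes stood in 9 clusters, defined as runs of Obp TUs on 1 arm with gaps of at most 10 kb on either strand. The clusters held 31 of the 51 genes (60.8%) in 30 TUs, and 5 of the 9, with 20 genes, were on 2R. Neighbours within a cluster formed 21 pairs, with a median gap of 255 bp (0 to 8429 bp). In 18 of the 21 pairs the gap was at most 1000 bp, and in 17 no other TU lay in the gap. TUs in a cluster had a median of 823 bp (476 to 3091 bp) and the 20 TUs outside had 787.5 bp (465 to 113290 bp), so short length was found in both.

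The strand order within clusters was mixed. Of the 21 pairs, 11 ran on the same strand (gaps of 13 to 1799 bp), 6 stood tail to tail and 4 head to head. Both strands were used in 6 clusters and a single strand in 3. By the same rule, odorant receptor (Or) genes formed 9 pairs, all 9 on the same strand, gustatory receptor (Gr) genes 21 pairs with 16 on the same strand, and ionotropic receptor (Ir) genes 24 pairs with 18. The share of genes in a cluster was 27.1% for Or, 56.7% for Gr and 53% for Ir. These families were not tested against each other.

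The tightest cluster was that of Obp57c, Obp57b and Obp57a on 2R (20503584 to 20505758), in this order, all on the plus strand. Obp57c ended 48 bp before Obp57b, and Obp57b ended 13 bp before Obp57a, the narrowest same-strand gap of any Obp TU. Obp TUs filled 97.2% of this span of 2175 bp. Obp57e and Obp57d lay 42057 bp farther on, on the minus strand, with 76 bp between their TUs. A same-strand TU ended within 1000 bp upstream of 18 Obp TUs (36%, beside 30.3% of all TUs), and in 10 of these it was another Obp TU.

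The X-linked cluster held Obp19a, Obp19b, Obp19c and Obp19d in letter order in 5236 bp (X, 20415744 to 20420979), and no other TU lay in that span. Obp19a (778 bp), Obp19b (1080 bp) and Obp19d (1367 bp) were on plus, and Obp19c (1044 bp) between them was on minus. Obp19b is known from taste sensilla and Obp19d is abundant in both taste and olfactory organs. The gap from Obp19a to Obp19b was 211 bp, that from Obp19b to Obp19c, tail to tail, 108 bp, and that from Obp19c to Obp19d, head to head, 648 bp. The other X-linked members stood alone. Obp8a (FBgn0030103), whose product is known from seminal fluid, spanned 824 bp from 9214876 to 9215699 on plus, 85 bp before CG15368. Obp18a spanned 788 bp from 19135081 to 19135868 on minus, 238 bp after the end of RhoGAP18B on the same strand. None of the 6 X-linked TUs overlapped an opposite-strand TU or had a facing start within 500 bp, and 4 had a same-strand TU within 1000 bp. Among the 44 autosomal Obp TUs these counts were 12, 7 and 26, and the shares of all TUs were 39.1%, 24.4% and 49%. With 6 TUs on the X, no difference is drawn from these counts.

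The largest cluster by span held Obp56a to Obp56f on 2R (19697723 to 19713976, 16254 bp) and was also the loosest, with Obp TUs over 29% of it. Obp56a on plus met Obp56b tail to tail at 205 bp, and Obp56b, Obp56c and Obp56d followed on minus with gaps of 648 and 1799 bp. After 8429 bp came Obp56e and Obp56f on plus, 462 bp apart. Obp56g lay 69507 bp beyond, and Obp56h and Obp56i came after further gaps of 31510 and 48512 bp, so they were outside the cluster. Obp56g is a seminal fluid gene needed for the mating plug, and Obp56h has been linked to male mating behaviour.

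On the same arm, Obp50a to Obp50e filled 83.7% of 5055 bp (14370331 to 14375385). The starts of Obp50a (786 bp, minus) and of the shared Obp50b and Obp50c TU faced each other at 70 bp, the closest facing starts of the family. Obp50d (701 bp) followed on plus after 101 bp, and Obp50e (924 bp, minus) stood tail to tail with it at 653 bp, with CG34185 in the gap. Obp59a, Obp58b, Obp58c and Obp58d formed a cluster of 5078 bp (22702695 to 22707772) in which only Obp58c was on minus. Obp59a, needed for humidity sensing, was 917 bp from Obp58b, and CG30259 reached into this gap. Obp58b met Obp58c tail to tail at 232 bp, and Obp58c and Obp58d stood head to head with 255 bp between them.

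Arm 3R carried 3 clusters. Obp83a and Obp83b were 931 bp apart on minus (5972155 to 5976817). Obp83cd, on plus, lay 131316 bp farther on and overlapped the 3′ end of Obp83ef, on minus, by 92 bp, the single overlap between Obp TUs. Obp83g followed on minus after 636 bp. Obp99d and Obp99b stood tail to tail at 1249 bp (29714505 to 29716896), with Dup99B, the gene of a seminal peptide, in the gap. Obp99b is also known as tsx and responds to the sex determination pathway in the fat body of adults. Obp99a and Obp99c, which carry the same number, were outside the clusters, 13401 bp apart.

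**Figure D2:**
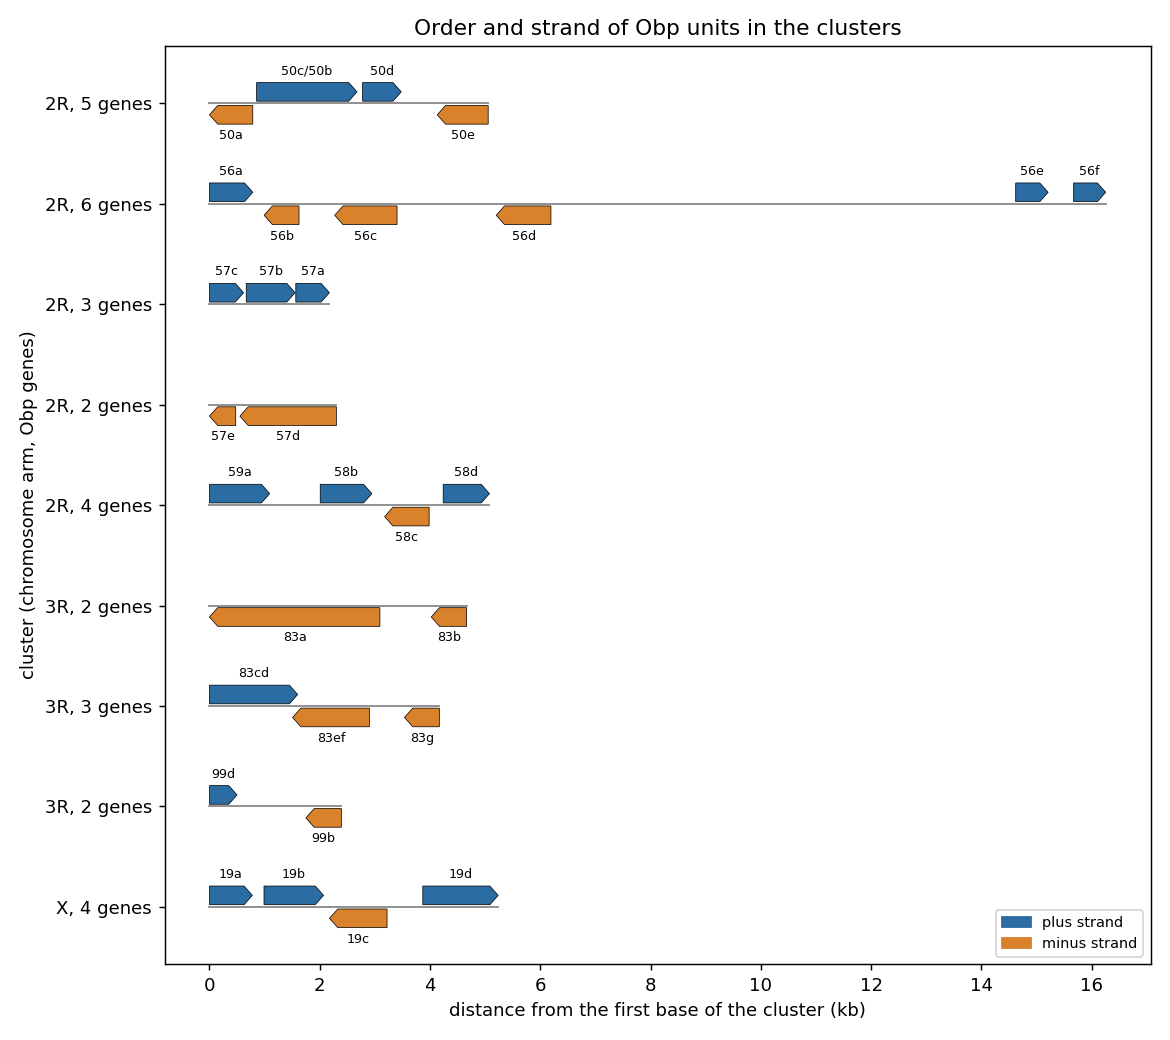
Order and strand of Obp TUs in the 9 clusters, drawn to scale as distance from the first base of each cluster (x axis, kb). Arrows above a line are on the plus strand and arrows below it on the minus strand, labels give the symbol without Obp, and other genes are not drawn. The 3 Obp57 genes at 13 and 48 bp gaps form the densest row, and Obp56e and Obp56f stand 8429 bp apart from the rest of their row.

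The symbols of the 51 genes carried 22 numbers, of which 14 had a single gene and 8 had 37 genes together. In 6 of these 8 sets, letters followed chromosome order, with Obp50b and Obp50c, which have the same interval and so no order, left out of the comparison. The exceptions were Obp57, in the order c, b, a, e, d, and Obp99, in the order a, c, d, b. A shared number did not always mean proximity, since Obp47a and Obp47b were 391761 bp apart.

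The nearest TU on the same strand was within 1000 bp for 30 Obp TUs (60%, beside 49% of all TUs), at a median gap of 762 bp beside 1057 bp. In clusters this held for 23 of 30 TUs and outside for 7 of 20, but a cluster is defined by near neighbours. With either strand counted, the nearest TU was another Obp TU in 19 of 50 cases, a TU with another protein-coding gene in 25 and a TU without a matched protein-coding gene in 6. The same counts over all TUs and for the receptor families are not given here. Obp58d had CG30275 and CG30268 21 bp away, Obp56i had CR44460 at 30 bp and Obp49a had CG30053 at 182 bp, each on its own strand. Obp49a takes part in the suppression of sweet taste by bitter compounds. Obp28a, an abundant antennal member on 2L (7496791 to 7497365, minus strand, 575 bp), lay 439 bp after RapGAP1. The most distant same-strand neighbours were those of Obp69a at 14700 bp and Obp83cd at 12858 bp.

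**Figure D3:**
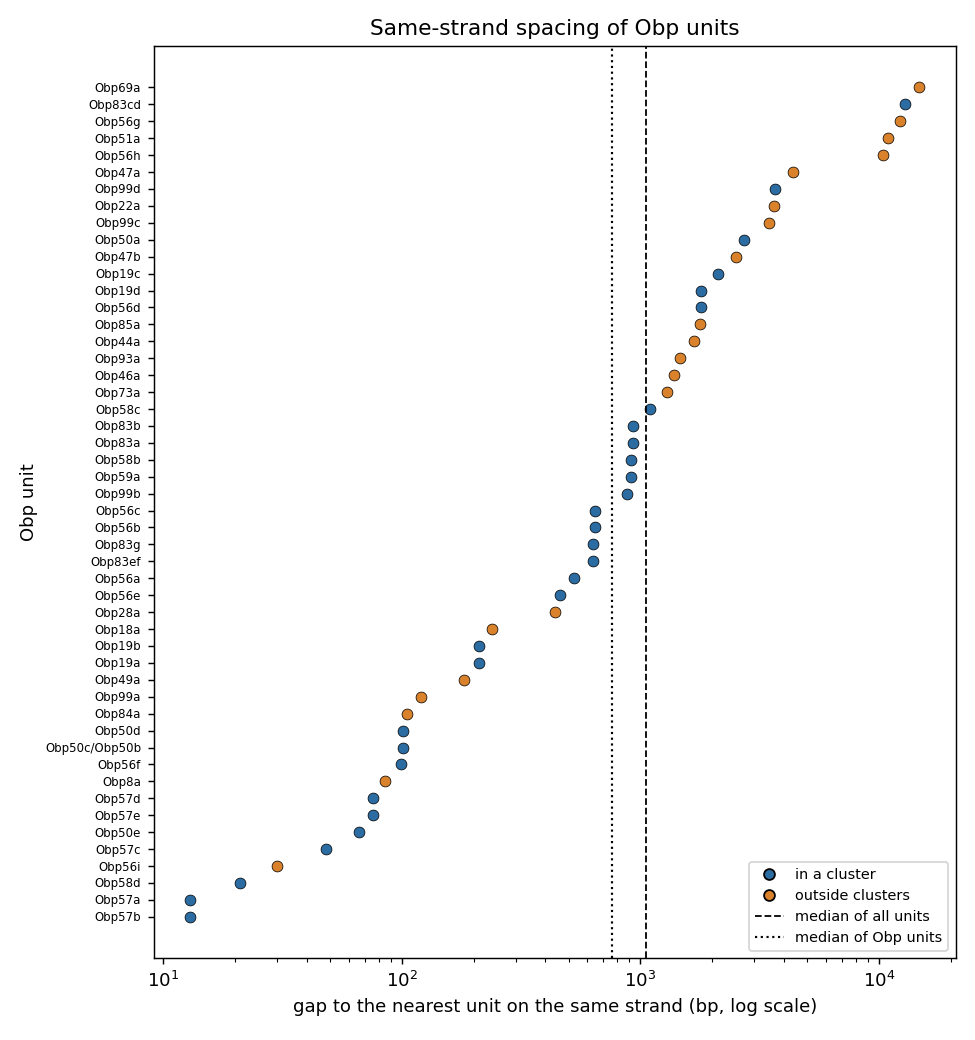
Gap to the nearest TU on the same strand (x axis, bp, log scale) for each of the 50 Obp TUs (y axis, sorted), coloured by whether the TU was in a cluster. Lines mark the medians of Obp TUs (762 bp) and of all TUs (1057 bp), and the points run from 13 bp for Obp57a and Obp57b to 14700 bp for Obp69a.

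An opposite-strand TU overlapped 12 Obp TUs (24%, beside 39.1% of all TUs). In 6 of the 12 the overlap covered the 3′ end, in 2 the 5′ end, and in 4 the whole Obp TU. The 3′ overlaps ran from 23 bp of Obp99c with Gycalpha99B to 1026 bp of Obp84a with CG10050, which was 83.2% of the Obp84a TU. Obp93a shared 652 bp (84.9%) with CG5793, and Obp44a, a member released by glia of the brain, shared 205 bp (17.9%) with Pabp2. At the 5′ end, the non-coding CR44509 covered 505 bp (85.9%) of Obp56e, start included, and Cpr73D covered 13329 bp of the TU of Obp73a and Nc73EF. Signal read without strand cannot be assigned to either gene in these stretches.

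The 4 Obp TUs that lay whole inside an opposite-strand TU made up 8%, beside 11.1% of all TUs. Obp51a sat in the TU of hbs, a cell adhesion gene of myoblast fusion, and CR45256 on 2R (30739 bp, 15011396 to 15042134), 12979 bp from its left end. Obp69a (FBgn0011279), linked to social responses to a male pheromone, was nested on 3L (12396171 to 12396957) in CG32104 of 5519 bp, with 2367 bp of the host on its left and 2365 bp on its right. Obp47b (741 bp) was nested in CG7741 of 3692 bp, and Obp59a (1092 bp) in CG30259 of 3103 bp. By RefSeq gene bodies there were 5 nested genes, since the body of Obp73a, taken without Nc73EF, lay inside Cpr73D (18590 bp, 16939100 to 16957689). Obp85a lay inside CG45263 on the same strand as given by their TU, and was not counted among the 5.

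**Figure D4:**
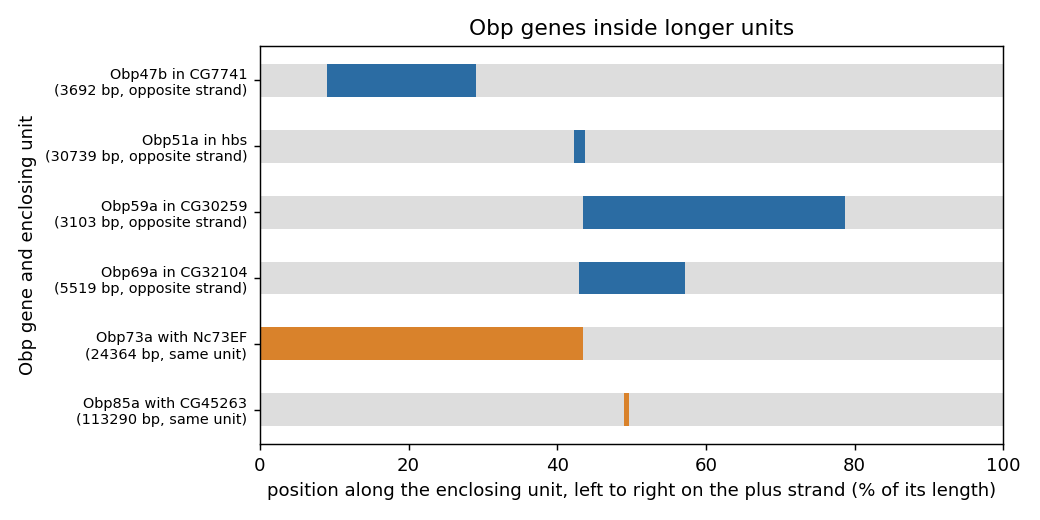
Place of Obp genes inside longer intervals, as percent of the length of the enclosing TU (x axis), with the left end on the plus strand at 0. Blue marks Obp TUs inside an opposite-strand TU and orange marks RefSeq bodies of Obp genes merged into a longer TU of their own strand. Obp69a is close to the centre of its host, and Obp85a fills 0.685% of its TU.

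A facing start, meaning an opposite-strand TU that starts 0 to 500 bp upstream, was found for 7 Obp TUs (14%, beside 24.4% of all TUs). In 4 of these the facing TU was another Obp TU, in the pairs Obp50a with Obp50b and Obp50c at 70 bp and Obp58c with Obp58d at 256 bp. The others faced CR45231 (Obp56g, 251 bp), CG30259 (Obp58b, 257 bp) and Ice2 (Obp93a, 499 bp). The count depends on the distance chosen, since 2 had a facing start within 250 bp and 12 within 1000 bp. The shares of all TUs at these other distances are not given here.

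Putting these features together, 8 Obp TUs (16%, beside 19.9% of all TUs) held a single gene, had no opposite-strand overlap, no facing start within 500 bp and no same-strand TU within 1000 bp. They were Obp22a, Obp46a, Obp47a, Obp56d, Obp56h, Obp99d, Obp19c and Obp19d. Obp56h (651 bp) was the most distant from any TU, at 10373 bp from Toll-7. Obp47a (563 bp) was next, at 4359 bp from polyph. Closer TUs on the other strand were still found, at 28 bp for Obp46a (CG12909), 63 bp for Obp99d (Dup99B), 107 bp for Obp19d (Pp4-19C), 108 bp for Obp19c (Obp19b) and 486 bp for Obp22a (CR42874). The nearest TU of Obp56d, Obp56c at 1799 bp, was on its own strand. Among the receptor families the share was 42.4% of 59 Or TUs, 15.5% of 58 Gr TUs and 21.5% of 65 Ir TUs.

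Set beside the receptor families, Obp TUs were shorter. Median TUs measured 1472 bp for Or, 1393 bp for Gr and 1908 bp for Ir genes, and 0, 0 and 2 of their TUs were shorter than 1000 bp, where 34 Obp TUs were. A single transcript was listed for 88.1% of Or, 81% of Gr and 81.5% of Ir TUs, beside 56% of Obp TUs. Opposite-strand overlap was found for 25.4% of Or, 22.4% of Gr and 21.5% of Ir TUs, close to the 24% of Obp TUs. None of these differences was tested.

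**Figure D5:**
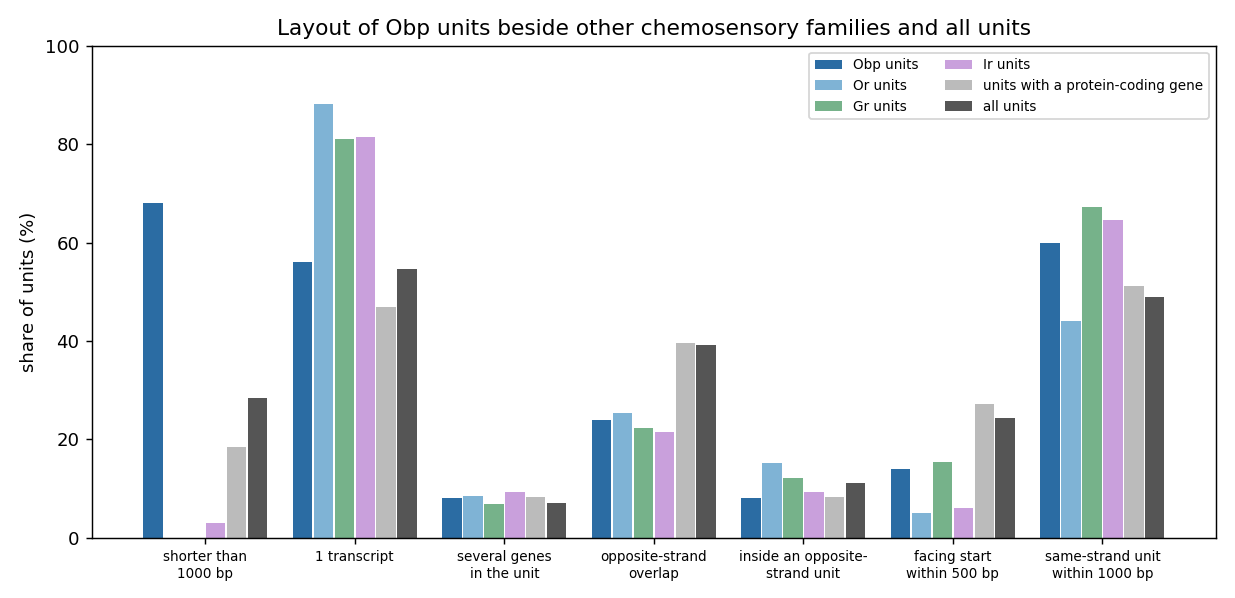
Share of TUs (y axis, %) with each of 7 layout features (x axis) for Obp, Or, Gr and Ir TUs, TUs with a protein-coding gene and all TUs. Obp TUs stand at 68% for lengths under 1000 bp against at most 3.08% in the receptor families, and all 4 chemosensory families lie between 21.5% and 25.4% for opposite-strand overlap.

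A list of 13 other genes of odour and taste detection was set beside the family, and all 13 were in the annotation. Their TUs had a median of 2365 bp (619 to 9792 bp), with 4 opposite-strand overlaps, 2 facing starts within 500 bp and 1 merged TU, beside 39.1%, 24.4% and 7.15% of all TUs. Or67d, Ir8a, Ir25a and Ir76b are on this list and were also counted in the Or and Ir families above. lush, also called Obp76a, encodes the binding protein for the male pheromone cis-vaccenyl acetate and is a member of the protein family that the symbol rule did not take. Its TU of 1693 bp (3L, 19604398 to 19606090, minus strand) faced CG9372 at 118 bp and overlapped no TU. Orco, the co-receptor of Or proteins, spanned 5224 bp on 3R without an overlap. Snmp1, a membrane protein of pheromone neurons, spanned 3039 bp and was nested whole in the TU of SNF4Agamma and CG5810. Or67d, the receptor of the same pheromone, spanned 1421 bp and had no overlap. a10, which encodes a small secreted antennal protein of another family, had the shortest TU of the list, 619 bp.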

How the data were processed

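Tools named in the submitters' processing notes were STAR 2.7.4a, cutadapt 2.8, DESeq2, DESeq and SAMtools 1.20, on build dm6. The authors' deposited annotation came from rtracklayer 1.48.0, per the file headers, as a GFF version 2 table. It gives no read counts but other values: 1-based start and end in bp, strand, genes and transcripts per TU. The rule for merging genes, and settings of these tools, were not given in the sources used here.

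Gaps are bp between TUs, 0 for overlap, and overlap needed 1 bp. Facing starts were within 500 bp, close same-strand TUs within 1000 bp and clusters had gaps of at most 10 kb. RefSeq genes (Release 6 assembly) were matched by symbol or unique synonym on the same chromosome, 17589 of 17698. RefSeq bodies took the strand of their TU.

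Members, lists and features were chosen with earlier results of these data known. TUs are a census and have no replicates, so counts and medians stand beside those of all TUs, without tests. The rule for names allowed all members, their neighbours and 13 listed genes. The neighbour functions were tested on simulated data of 800 TUs, with 0 errors. Python 3.11.15, numpy 2.4.6 and matplotlib 3.10.9 were used. Sequences were not analysed here.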

Additional observations from a re-analysis of the deposited data

How the results depend on the processing

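Obp TUs with a facing start numbered 7 within 500 bp, 2 within 250 bp and 12 within 1000 bp, where the wider or narrower window itself sets the count. The other 23 alternative values stayed within 1.5 times the main count or, for median lengths, within the interquartile range. At the edge of that limit, Obp TUs with a close same-strand TU numbered 30 within 1000 bp and 20 within 500 bp. Within 2000 bp they numbered 38, so this count also moved with the window. Clusters numbered 9 or 10 at gaps of 5, 20 and 50 kb and held 31 to 36 genes. With no other TU allowed between members there were 9, with 27 genes and 10 same-strand pairs. Overlaps numbered 9 when at least 100 bp were asked for and 8 when at least 50% of the shorter TU had to be covered. Shares of all TUs at these alternative settings are not given here. The median length was 788 bp for RefSeq bodies and 786.5 bp without shared TUs. Counting RefSeq bodies as nested, counting genes and pairs with no other TU between members, and leaving shared TUs out of the counts of short and single-transcript TUs, were chosen after seeing the data. No shared Obp TU was short or had a single transcript, so leaving them out could not change the counts of short and single-transcript TUs. Comparisons of protein identity and promoter motifs were not run, since sequences were not used here. No paired analysis was possible because the annotation holds no sample values. The annotation limits every statement to annotated intervals, with depth unknown.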
